A study of Homo sapiens with 3 samples.

Results

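SOX4 summits on the short arm of chromosome 8, arm 8p, were taken as every row of the 3 deposited summit lists that lay on chromosome 8 at or below position 45200000. There were 313 of them among 7511 summits in all (4.17%), replicate 1 giving 48, replicate 2 giving 95 and replicate 3 giving 170. A summit is the single base where a peak of immunoprecipitated DNA is highest. The lists come from chromatin immunoprecipitation and sequencing of SOX4 in BT549 cells, a human line grown from a triple-negative breast tumour, with 1 list per library and no second condition. The labels give 5 passages for each library and describe no genetic change or treatment, and the series design gives fixation with DSG and then formaldehyde. They do not say whether the libraries are separate cultures, so the spread between them may be technical. Control libraries were not analysed here, and the read depth is unknown. Positions are on GRCh38 although the submitters' notes name hg19. The lowest summit on 8p was at 146578 and the highest at 43420434, and the next one on the chromosome was past the limit at 45985728.

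SOX4 belongs to the SOX family of transcription factors, which bind a short DNA motif through a high-mobility-group domain and bend the DNA. It is active in progenitor cells and is known for its part in epithelial-mesenchymal transition and in tumour growth. The arm is one that breast cancers often lose in its outer part and gain in its part next to the centromere, where FGFR1, NSD3 and ZNF703 lie. It also carries the beta-defensin cluster and its multicopy gene families, the TRAIL death receptor genes, the growth factor gene NRG1 and one SOX gene, SOX7.

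SOX4 summits were several times denser on 8p than on the assembled chromosomes other than 8. Replicate 1 had 1.06 summits per Mb on 8p against 0.331 elsewhere, replicate 2 had 2.10 against 0.343, and replicate 3 had 3.76 against 1.22. The ratios were 3.21, 6.12 and 3.09. The mean difference was 1.68 ± 0.909 summits per Mb (SD, n = 3), with 8p higher in 3 of 3 libraries. The exact two-sided sign-flip permutation test over the 3 libraries gave p = 0.25, the smallest this design allows, and an adjusted p of 0.5 over 6 tests. The arm held 3.797% of the assembled summits of replicate 1 (exact 95% binomial interval 2.81 to 5.00%), 5.98% of replicate 2 (4.87 to 7.26%) and 3.95% of replicate 3 (3.39 to 4.58%). These intervals cover counting error only.

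The arm was less dense than 8q, the rest of chromosome 8, where the 3 libraries had 2.43, 4.84 and 5.52 summits per Mb. Against chromosome 9, with 0.694, 0.896 and 2.48 per Mb, 8p was higher in each library. The arms were close to each other at gene ends. Within 1 kb of a coding gene end, 8p had 0.531, 0.597 and 1.59 summits per Mb and 8q had 0.581, 0.671 and 1.61, ratios of 0.914, 0.890 and 0.988. Over 1 kb from any coding gene end the ratios of 8p to 8q were 0.287, 0.361 and 0.555. Compared with the chromosomes other than 8, 8p was denser in both positions in every library, by 3.61, 4.75 and 2.20 times at gene ends and by 2.89, 6.92 and 4.39 times away from them. There are 6.46 coding genes per Mb on 8p and 6.57 on the chromosomes other than 8.

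**Figure D1:**
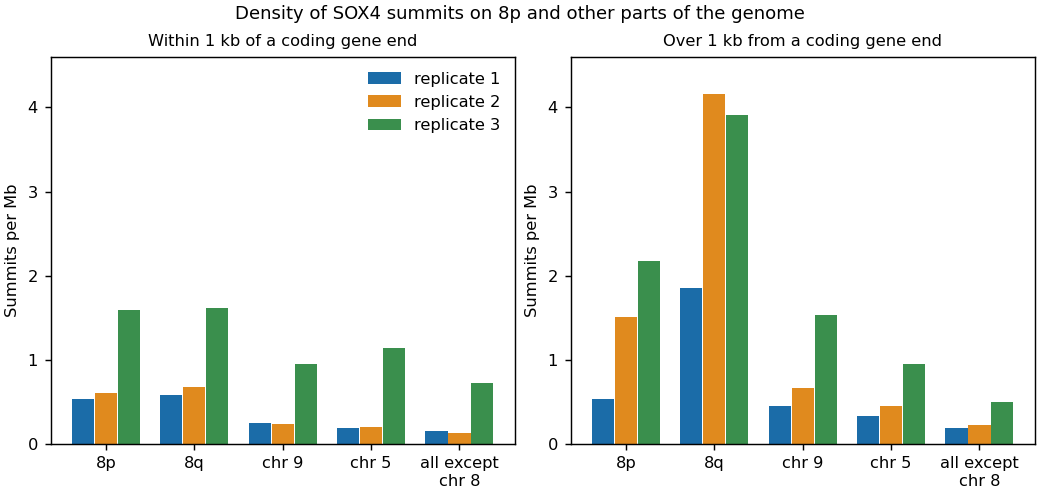
Summits per Mb (vertical axes, linear from 0) in each of 3 libraries on 8p, 8q, chromosomes 9 and 5 and all assembled chromosomes except 8, split at 1 kb from a coding gene end. At gene ends the bars of 8p stand at 0.531, 0.597 and 1.59 beside those of 8q at 0.581, 0.671 and 1.61, while for distal summits, over 1 kb from those ends, 8p lies below 8q and above the others.

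Summits on 8p had median scores near those of the chromosomes other than 8, and none scored above 20. The score is the authors' own value, on a −log10 scale whose base statistic (p or q) is not stated. Lists differ in size, so scores were tested only within a list, and the raw scores of a site in several libraries are given side by side with no order read from them. Its median on 8p was 6.15, 5.57 and 5.69 in replicates 1 to 3, and on the chromosomes other than 8 it was 6.15, 5.57 and 5.52. The mean difference was 0.057 ± 0.100 (SD, n = 3; exact sign-flip permutation p = 1). The upper end differed: the highest score on 8p was 19.3, 17.5 and 16.8, which ranked 111, 125 and 107 in the lists. No summit of 8p scored above 20, against 7.71%, 7.03% and 1.42% of the summits on the chromosomes other than 8. The shares above 20 were also small on 8q, at 2.06%, 0.414% and 0.726%, and on chromosome 9, at 2.08%, 0.806% and 0.292%. Scores above 10 were held by 7, 3 and 8 summits of 8p (14.6%, 3.16% and 4.71%), against 22.0%, 16.7% and 5.89% on the chromosomes other than 8 and 4.94%, 3.73% and 7.62% on 8q. Gene-end summits had a median of 5.47, 5.30 and 6.31 and the others 6.53, 5.72 and 5.53, so gene-end summits were the lower in replicates 1 and 2 and the higher in replicate 3. Shared summits had a median of 5.64, 5.48 and 7.59 and unshared ones 6.36, 5.57 and 5.53.

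Most summits of 8p over 1 kb from coding gene ends, called distal here, were found in 1 library, while most of those at gene ends in replicates 1 and 2 were found again. A summit was called shared when another library had one within 200 bp. Of the gene-end summits of 8p, 20 of 24 were shared in replicate 1 (83.3%), 21 of 27 in replicate 2 (77.8%) and 25 of 72 in replicate 3 (34.7%). On the chromosomes other than 8 the shares were 54.04%, 57.6% and 13.5%. Of the summits over 1 kb from a gene end, 4 of 24 were shared in replicate 1 (16.7%), 5 of 68 in replicate 2 (7.35%) and 7 of 98 in replicate 3 (7.14%), against 52.8%, 47.5% and 20.3%. Both differences held in 3 of 3 libraries, with means of 23.6 ± 4.98 and -29.8 ± 14.5 percentage points (SD, n = 3; exact sign-flip permutation p = 0.25 each, adjusted p = 0.5). This split was chosen after the data were seen. A summit shared with another library also makes a summit of that library shared. The 3 shares, with or without the split, are therefore not independent, which the test and the SD do not allow for. Without replicate 2 the means were 13.5 and -16.4 percentage points, and without replicate 1 the distal one was -19.2. The 8q arm had shares of 67.2%, 62.7% and 33.5% at gene ends and 28.1%, 15.9% and 14.6% for distal summits. Distal does not mean outside genes, since 14 of 24, 39 of 68 and 54 of 98 distal summits of 8p lay inside a coding gene.

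Without the split, 50.0%, 27.4% and 18.8% of the summits of 8p were shared, beside 50.2%, 41% and 16.9% over all assembled chromosomes. The order against the chromosomes other than 8 was not the same in every library, with 8p higher in 1 of 3 (mean difference -8.20 ± 13.8 percentage points, exact sign-flip permutation p = 0.5). It was -1.64 without replicate 2, -5.44 without replicate 1 and 5.41 against 8q. The share within 1 kb of a coding gene end was 50.0% (exact interval 35.2 to 64.8%), 28.4% (19.6 to 38.6%) and 42.4% (34.8 to 50.2%), beside 40.7%, 29.2% and 54.9% over all assembled chromosomes. Here too 8p was higher than the chromosomes other than 8 in 1 of 3 libraries (-6.61 ± 11.4 percentage points, exact sign-flip permutation p = 0.5). This difference was -12.7 without replicate 1 and -1.36 without replicate 3, and it turned to 17.9 against 8q and 6.85 against chromosome 9. Such positions make up 2.45% of the arm. Inside a coding gene lay 58.3%, 60.0% and 64.1% of the summits, in a non-coding gene alone 16.7%, 14.7% and 10.6%, and outside every RefSeq gene 25%, 25.3% and 25.3%. Coding genes cover 45.2% of the arm.

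**Figure D2:**
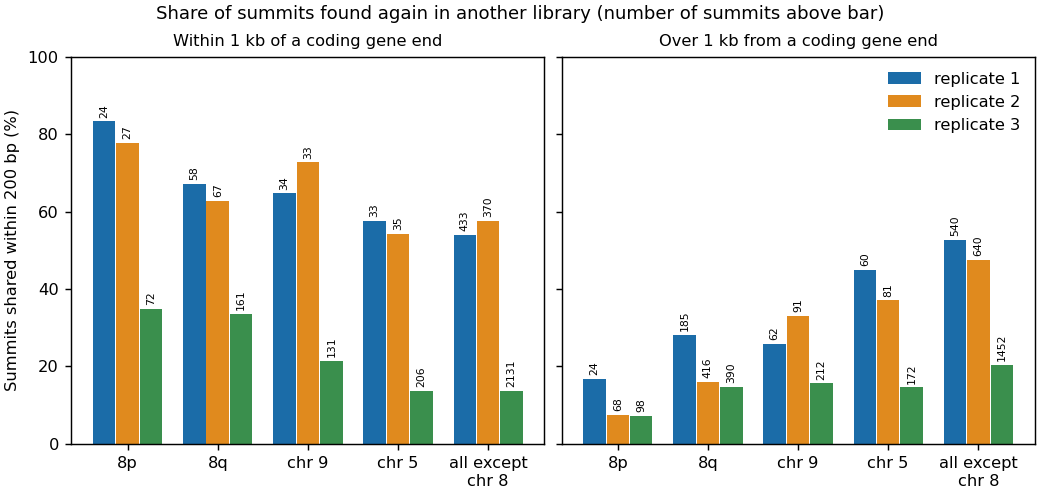
Percent of summits with a summit of another library within 200 bp (vertical axis), by library and part of the genome, with the number of summits above each bar. On 8p the bars at gene ends reach 83.3%, 77.8% and 34.7%, and those over 1 kb from them 16.7%, 7.35% and 7.14%.

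Joined over the libraries by gaps of at most 200 bp, the summits of 8p formed 266 regions. A single library made 231 of them, 2 libraries made 24, and 11 held summits of all 3. The 35 with more than 1 library made up 13.2% of the regions, beside 14.4% over all assembled chromosomes. Replicate 3 alone gave 138 regions, replicate 2 alone 69 and replicate 1 alone 24. Among the 35, coding gene ends were within 1 kb of 28 (80.0%), whereas on the chromosomes other than 8 this was 333 of 697 (47.8%) and on 8q 59 of 136 (43.4%). Of the regions of 1 library, 57 of 231 were at gene ends on 8p (24.7%), against 2197 of 3945 on the chromosomes other than 8 (55.7%), 15.6% on 8q and 30.2% on chromosome 9. No test was made of these shares over regions. The number of regions of at least 2 libraries was 23 without replicate 1, 18 without replicate 2 and 14 without replicate 3.

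**Figure D3:**
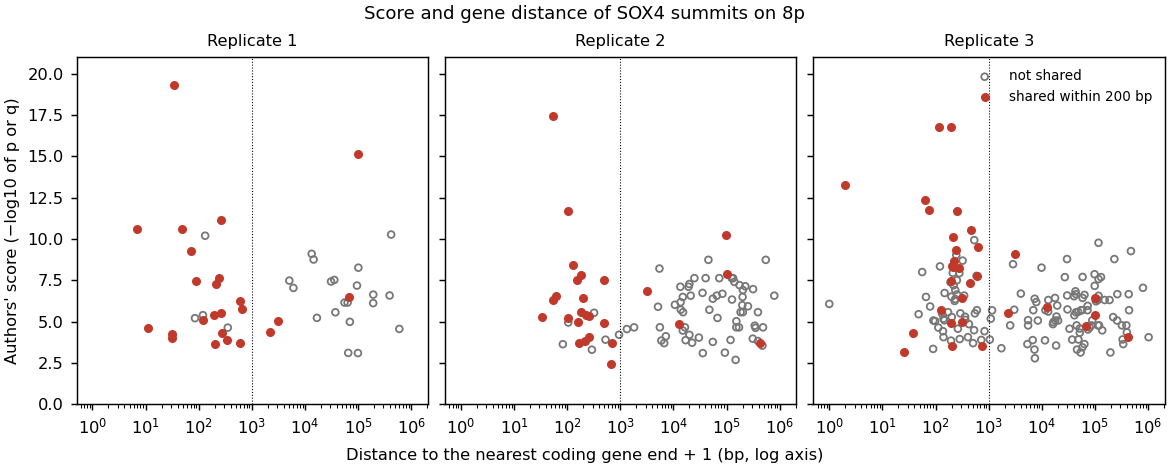
Score of each summit of 8p (vertical axis, −log10 of p or q) against its distance from the nearest coding gene end (horizontal log axis, bp), in 3 panels for the 3 libraries, with the dotted line at 1 kb. Filled points, shared within 200 bp, gather left of the line, where the highest scores of 19.3, 17.5 and 16.8 lie. Open points were not shared, and they make up most of those to the right.

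Along the arm, summits were more numerous from the middle towards the centromere than near the telomere. In 5-Mb bins from the telomere, replicate 1 had between 1 and 9 summits, replicate 2 between 4 and 24 and replicate 3 between 9 and 31. The bin from 30 to 35 Mb was the fullest in each library, with 9, 24 and 31 summits. It ranked 19, 10 and 11 among the 631 bins of that size in the genome. The median of the 601 bins outside chromosome 8 was 1, 1 and 5. Of the 64 summits of this bin, 49 were distal, over 1 kb from coding gene ends, more than in any other bin of the arm. The bin holds 20 coding genes. Of these, 5 had summits of at least 2 libraries within 1 kb: the dynactin subunit gene DCTN6, PURG, the helicase gene WRN, the ribosome biogenesis gene MAK16 and TTI2, whose product helps to stabilise the PI3K-related kinases.

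**Figure D4:**
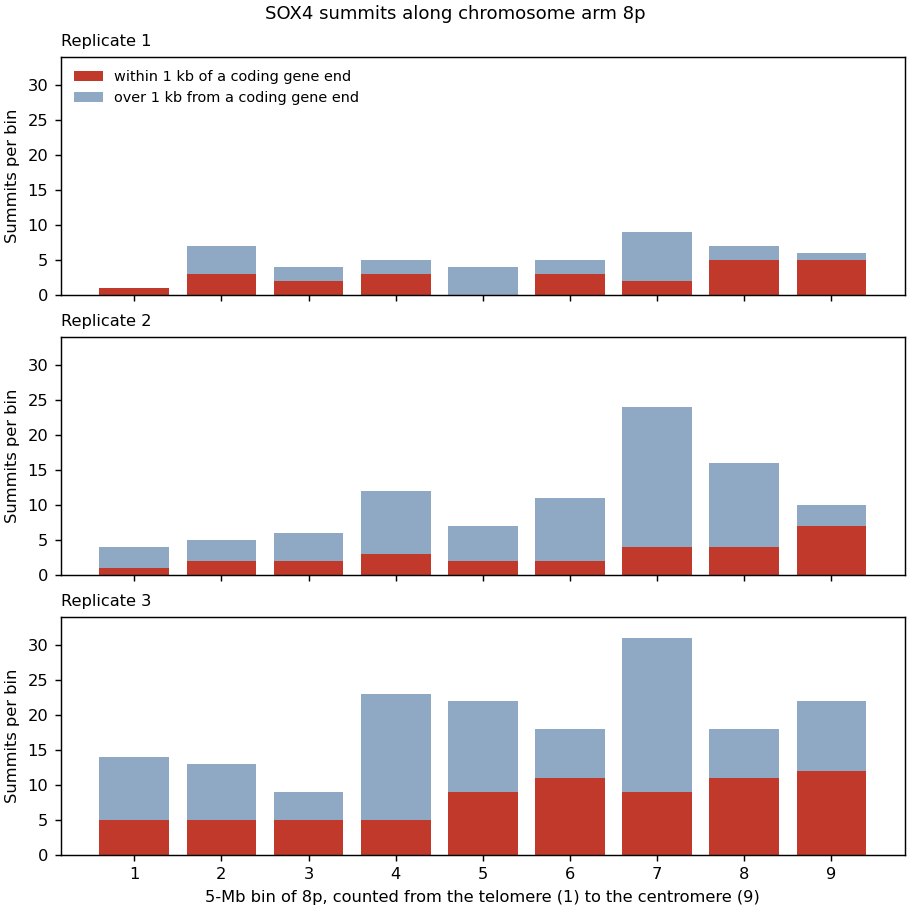
Number of summits (vertical axes) in each of the 9 whole 5-Mb bins of 8p, counted from the telomere to the centromere, in 3 panels for the 3 libraries. Bin 7 is the fullest with 9, 24 and 31 summits, mostly over 1 kb from gene ends, and bin 9 holds 5, 7 and 12 summits at gene ends.

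Summits of 8p were seldom crowded in replicates 1 and 2. In replicate 1, 2 of 48 had another of the same library within 10 kb (4.17%, exact interval 0.509 to 14.3%). In replicate 2 it was 6 of 95 (6.32%, 2.35 to 13.2%), and in replicate 3 it was 32 of 170 (18.8%, 13.2 to 25.5%). The chromosomes other than 8 had 15.4%, 18.8% and 14.5%, and chromosome 9 had 2.08%, 14.5% and 17.8%. The median gap between neighbours was 220 kb, 99.7 kb and 53.1 kb on 8p. On the chromosomes other than 8 it was 420 kb, 391 kb and 125 kb.

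At a finer scale, 2 of the 46 bins of 1 Mb had no summit, both next to the centromere and without coding genes. The fullest, from 32 to 33 Mb, had 23 summits, 22 of them distal. The bins from 38 to 39 Mb and from 42 to 43 Mb had another profile, with 16 of 19 and 16 of 17 summits at gene ends, among 14 and 13 coding genes. The bin from 7 to 8 Mb, which holds 42 coding genes of the defensin and multicopy families, had 2 summits, both of replicate 3. In the densest bin for genes outside that cluster, from 22 to 23 Mb with 24 coding genes, there were 10 summits, 9 of them of replicate 3.

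NRG1, which encodes the ErbB receptor ligand neuregulin, held the most summits inside its bounds (31639245 to 32774046). It had 3 in replicate 1, 8 in replicate 2 and 13 in replicate 3. These 24 summits were 7.67% of all on the arm, in a gene that spans 2.51% of it. That is 2.11 summits per 100 kb, against 0.692 over the arm. Their scores ran from 3.09 to 10.3, and 2 of the 24 were shared. The 2 shared ones formed 1 region deep in the gene, with replicate 3 at 32229114 (score 4.05) and replicate 2 at 32229278 (3.70). The highest score of the gene, 10.3 in replicate 1, was at 32229482, just over 200 bp from the replicate 2 summit and so not counted as shared. At its own lower-coordinate end NRG1 had 1 summit, of replicate 2, at 291 bp with a score of 3.30.

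After NRG1 came WRN, a DNA helicase lost in Werner syndrome, with 6 summits (0, 3 and 3 in replicates 1 to 3) and none shared. AGPAT5, an acyltransferase of phospholipid synthesis, had 5 in 52.9 kb, and the phospholipase gene DDHD2 had 5 in 42.1 kb. All 5 in DDHD2 were within 1 kb of a coding gene end, for some of them that of PLPP5 and not its own. Of the 5, 4 were shared. The metalloprotease gene ADAM9 had 4, with 0 shared. ANK1, ASAH1, CNOT7 and HMBOX1 also had 4 each, with 3 shared in each of them. In all, 96 coding genes of the arm had a summit inside (32.9%), against 14.6% of all coding genes and 48.7% of those of 8q.

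Of the 292 coding genes of 8p, 80 had a summit within 1 kb of either end in any library (27.4%, exact interval 22.4 to 32.9%), where 15.1% of all 20037 coding genes did. By library the counts were 28 in replicate 1 (9.59%, against 3.07% of all), 31 in replicate 2 (10.6%, against 2.76%) and 76 in replicate 3 (26.03%, against 13.3%). Summits of at least 2 libraries were near 36 genes (12.3%, against 3.2%), and summits of all 3 near 19 (6.51%, against 0.838%). On 8q the shares were 43.5% for any library, 19.1% for at least 2 and 7.33% for all 3. Of the 44 genes of 8p with 1 library, 40 had it from replicate 3. Over the genome too, replicate 3 was near the most coding genes, 2667 against 615 for replicate 1 and 553 for replicate 2. Without replicate 3, 40 genes of 8p had a summit, 19 of them in both remaining libraries. The matching counts over all coding genes are not given here, so these counts are not read as particular to 8p. The table has no strand for these genes, so the start of a gene cannot be told from its end. Some genes lie so close that they shared a summit, which was so for 24 genes in 12 pairs, such as WRN with PURG and TRIM35 with PTK2B.

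Genes were ordered by the poorest of their 3 ranks, each taken as a share of the size of its list. The best-placed gene end of the arm was then that of ASH2L, a core subunit of the complexes that methylate histone H3 at promoters. Replicate 1 scored 19.3 at 33 bp from the lower-coordinate end of the gene (38105493), replicate 2 17.5 at 52 bp and replicate 3 8.69 at 322 bp. The first and second were the highest summits on 8p in their libraries. In replicate 3 its rank was 527, and ENTPD4, a nucleotide hydrolase gene, had the highest summit of 8p there, with a score of 16.8. In replicate 3 the summit of ASH2L stood apart by more than 200 bp and was not shared.

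MAK16, needed to make the large ribosomal subunit, followed with the scores 9.28, 11.7 and 16.8 in replicates 1 to 3. Its summits at 33485110, 33485080 and 33484989 lay 72, 102 and 193 bp from its lower-coordinate end, so all 3 libraries fell within 121 bp. FNTA, the shared subunit of the farnesyl and geranylgeranyl transferases that lipidate RAS-family proteins, scored 7.62, 7.84 and 11.7 at 243, 182 and 74 bp. The FNTA summits also formed 1 region of all 3 libraries.

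ERLIN2, a membrane protein of the endoplasmic reticulum that clears inositol trisphosphate receptors, scored 10.6, 7.4996 and 5.495 at 48, 150 and 549 bp. PPP2R2A, a regulatory subunit gene of the phosphatase PP2A, scored 5.39, 5.21 and 8.37 at 119, 105 and 201 bp. The zinc finger gene ZNF596, nearest the telomere of the set, scored 5.20, 3.90 and 8.34 at 84, 527 and 120 bp. None of the ZNF596 summits was shared, nor were the replicate 3 summit of ERLIN2 and the replicate 1 summit of PPP2R2A. THAP1, a zinc finger transcription factor gene mutated in dystonia, scored 10.6, 5.57 and 3.53 at 6, 183 and 201 bp.

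Of the 19 genes with all 3 libraries, 6 formed 3 neighbour pairs that drew on the same summits. CNOT7, a deadenylase of the CCR4-NOT complex that shortens mRNA tails, and VPS37A, a subunit of the ESCRT machinery for sorting membrane proteins, shared summits with scores of 5.54, 5.38 and 10.1. These lay within CNOT7, 259, 224 and 212 bp from its upper-coordinate end. INTS9, a subunit of the Integrator complex that processes small nuclear RNAs, and HMBOX1, a telomere-binding homeobox gene, shared summits of 4.64, 6.30 and 8.69. DKK4, a secreted Wnt inhibitor gene, and VDAC3, a channel gene of the outer mitochondrial membrane, shared the replicate 1 summit of 11.1. In replicates 2 and 3 the closest summit differed, with 3.82 and 8.22 for DKK4 and 5.30 and 4.33 for VDAC3. All of these summits lay within 1 kb of both genes.

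The other 6 genes with all 3 libraries encode enzymes. GPAT4, an acyltransferase for triglyceride synthesis, scored 4.24, 6.52 and 7.44. AGPAT5 scored 3.65, 6.43 and 9.30, and ASAH1, the acid ceramidase gene, scored 3.69, 4.92 and 7.31. DDHD2 had 7.45, 8.43 and 3.85. TNKS, the tankyrase gene, had 3.86, 3.63 and 10.5, and MSRA, which repairs oxidised methionine, had 6.26, 2.45 and 9.53. The MSRA score in replicate 2 ranked 1712 of 1713 in its list. The replicate 3 summit of DDHD2 and the replicate 2 summit of TNKS were not shared.

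**Figure D5:**
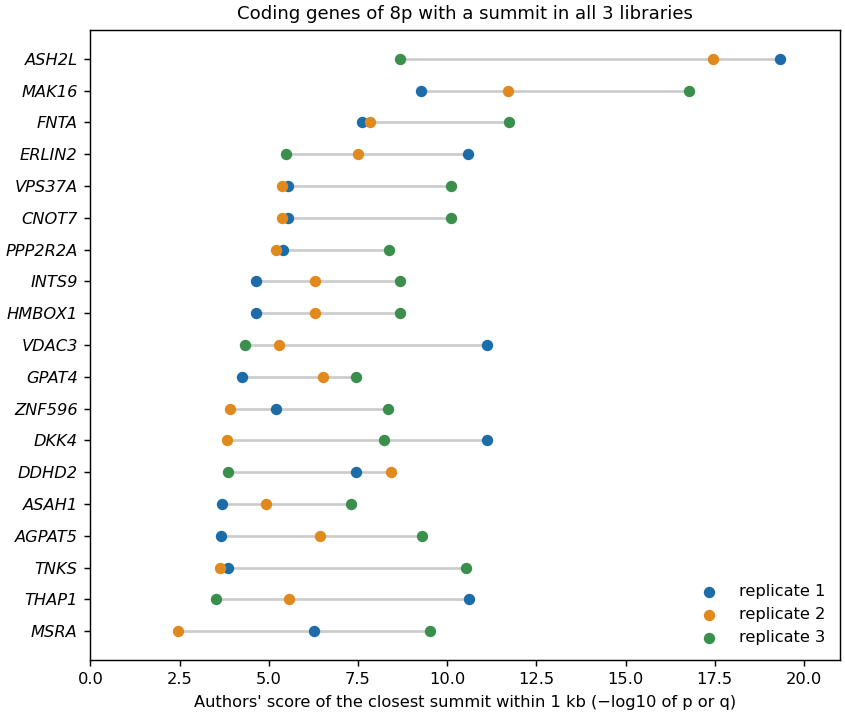
Scores (horizontal axis, −log10 of p or q) of the closest summit within 1 kb of either end for the 19 coding genes of 8p with summits of all 3 libraries, with 1 point per library and a grey line over their range. Genes run from the best to the poorest by their worst rank as a share of list size, from ASH2L with 19.3, 17.5 and 8.69 to MSRA with 6.26, 2.45 and 9.53.

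The regions of all 3 libraries numbered 11. From the best to the poorest by their lowest standing within any list, their nearest genes were MAK16, ANK1, FNTA, CNOT7, HMBOX1, CHMP7, GPAT4, DKK4, ASAH1, THAP1 and MSRA. Of these, 9 were within 1 kb of a coding gene end. The other two were inside genes. The region at chromosome 8, 41798298 to 41798321, lay in ANK1, the erythrocyte ankyrin gene, 98.4 kb from the nearest coding gene end and inside the long non-coding RNA gene LOC105379392, 531 bp from one of its ends. Its scores were 15.1, 10.2 and 6.42, which made it the highest distal site of 8p in replicates 1 and 2. The region at 23246718 to 23246795 lay in CHMP7, a gene of nuclear envelope repair, 3.12 kb from its lower-coordinate end, with scores of 5.01, 6.83 and 9.11. Another 5 distal regions had 2 libraries. They lay inside VPS37A, SLC25A37 and NRG1, and in 2 cases outside coding genes, 67.6 kb from STC1 and 100.9 kb from ADAM28.

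Genes were next grouped by function, using only those the RefSeq table places on 8p. The counts are of genes with a summit of any library within 1 kb, to be read beside 27.4% of the coding genes of 8p and 15.1% of all coding genes. The 27.4% is lowered by 26 defensin and 32 multicopy genes of the arm, of which 1 each was near a summit. These genes, with median distances to a summit of 82.2 and 87.7 kb, also enter the median distance of 8p. The groups are small, some genes belong to more than 1, and neighbours may share a summit. No test was made of the groups, which were chosen with earlier results of these data known.

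Genes of membrane traffic and protein turnover had 9 of 12 near a summit, 2 of them in at least 2 libraries and the other 7 from replicate 3 alone. They included VPS37A in all 3 libraries, the adaptor subunit gene AP3M2 with scores of 7.53 and 6.42 in replicates 2 and 3, and HOOK3, PCM1, FBXO25 and LEPROTL1 in replicate 3. PCM1, a centriolar satellite protein gene, scored 7.995 at 55 bp. The median distance from a gene end of this group to the nearest summit was 0.310 kb, against 26.8 kb over 8p and 121 kb over all coding genes.

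Genes of DNA repair and mitosis had 6 of 9, with a median distance of 0.279 kb. TNKS had all 3 libraries. POLB, the DNA polymerase of base excision repair, had 3.72 and 5.72 in replicates 2 and 3, and WRN had 4.94 and 6.25 in the same libraries. The glycosylase gene NEIL2, the mitotic gene CDCA2 and the cohesin acetyltransferase gene ESCO2 had replicate 3 alone, with 6.91, 7.93 and 7.94.

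Genes of metabolism and mitochondria had 8 of 15, of which 5 had all 3 libraries (GPAT4, VDAC3, AGPAT5, ASAH1 and MSRA). The zinc transporter gene SLC39A14, the mitochondrial iron importer gene SLC25A37 and the phosphate transporter gene SLC20A2 had replicate 3 alone, with 6.49, 3.35 and 6.36. Genes of transcription and chromatin had 9 of 20. HMBOX1, ASH2L, INTS9 and CNOT7 had all 3 libraries, and PURG and the methyltransferase gene NSD3 had 2. The acetyltransferase gene KAT6A had a summit of replicate 1 alone, with a score of 10.2 at 131 bp, and no other gene of the arm had replicate 1 alone. Among the others of this group, the developmental factor genes GATA4, SOX7, EGR3 and EBF2 had none within 1 kb. EBF2 had a replicate 2 summit inside it, 93.2 kb from its nearest end. The summit nearest to an end of SOX7 was 37.5 kb away, in replicate 3, and that nearest to GATA4 was 9.94 kb away.

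The breast cancer amplicon next to the centromere had 11 of 23 genes near a summit, 8 of them in at least 2 libraries and 3 in all 3 (ASH2L, ERLIN2 and DDHD2). The lipid phosphatase gene PLPP5 had 7.26 in replicate 1 and 3.17 in replicate 3, and shared both with NSD3. The apoptosis regulator gene BAG4 and the RNA-decay gene LSM1 shared the replicate 1 summit of 4.32, and in replicate 3 had 6.73 and 4.94. EIF4EBP1, the translation repressor gene, had 3.72 and 3.50 in replicates 2 and 3. The receptor gene FGFR1 and the oncogene ZNF703 had none within 1 kb, and their nearest summits were at 142 kb and 36.5 kb.

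Candidate tumour suppressor genes of the arm had 7 of 22 (31.8%), of which TNKS and PPP2R2A had all 3 libraries. BNIP3L, a mitophagy receptor gene, had a replicate 3 summit at the very base of its lower-coordinate end, at 0 bp, with a score of 6.07. ARHGEF10 had a replicate 3 summit at 724 bp with a score of 3.89. DLC1, TUSC3 and CSMD1 had none within 1 kb, and the summits nearest to their ends were at 95.1, 6.91 and 140 kb. Each of them held summits inside. In the whole group 13 of the 22 genes did, beside 32.9% of the coding genes of 8p. A longer gene has more room for a summit, and gene length was not taken into account. Genes of Wnt, FGF and MAPK signalling had 3 of 10. DKK4 had all 3 libraries, with summits that also lay within 1 kb of VDAC3. The Wnt receptor gene FZD3 and the MAP kinase phosphatase gene DUSP4 had replicate 3, with 5.06 at 90 bp and 5.57 at 171 bp.

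Immune genes had 3 of 13 (23.1%), each from replicate 3 alone: the cathepsin gene CTSB with 4.06 at 140 bp, and TRIM35 and the kinase gene PTK2B, which shared a summit of 7.498. IDO1, which degrades tryptophan, and IKBKB, the NF-kappaB kinase gene, had none, with the nearest summits at 176 and 6.16 kb. The TRAIL death receptor genes had 0 of 4 (exact upper limit 60.2%). The nearest summit to TNFRSF10A was 21.6 kb away in replicate 1 and 21.7 kb in the other two libraries, and all 3 belong to the CHMP7 region. The nearest to TNFRSF10B was 20.2 kb away, in replicate 3.

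Neuronal genes had 1 of 15, NRG1, although 6 of the 15 had a summit inside, beside 32.9% of the coding genes of 8p. ADAM protease genes had 1 of 7, ADAM9, whose replicate 3 summit of 4.42 was shared with TM2D2. A summit lay inside 4 of the 7, and gene length was not taken into account for this or the neuronal group. Defensin genes had 1 of 26, DEFB107B with 5.69 at 598 bp in replicate 3, and the multicopy families 1 of 32, FAM86B1 with 4.20 at 947 bp in replicate 2. Copies of these genes are nearly identical, so the placement of reads among them is uncertain. Their median distances to the nearest summit were 82.2 and 87.7 kb, above the 26.8 kb of all genes of 8p.

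Of the 640 genes of 8p in the RefSeq table that do not code for protein, 32 had a summit within 1 kb of an end (5%, against 3.3% of all such genes in the genome), 15 of them in at least 2 libraries (2.34%, against 0.853%). In 10 of the 32 at least 1 summit was not near a coding gene end. Long non-coding RNA genes made up 19 of the 32, from 324 on the arm (5.86%, against 4.91% of all), and miRNA genes 4, from 33 (12.1%, against 3.14%). Of these miRNA genes, MIR4659A and MIR4659B overlap and count the same replicate 1 summit, and 0 of the 33 had at least 2 libraries. MIR320A had a replicate 3 summit at 77 bp with a score of 9.02, which is also the summit of the RNA polymerase III subunit gene POLR3D. SNORD13, a small nucleolar RNA gene that guides ribosomal RNA acetylation, had summits of replicate 1 at 206 bp (5.74) and replicate 3 at 157 bp (7.75), the same ones as TTI2. RNA5SP263, a 5S ribosomal RNA pseudogene inside NRG1, had replicate 2 at 457 bp (3.82) and replicate 3 at 134 bp (4.77), and neither was near a coding gene end.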

How the data were processed

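The 3 SOX4 libraries of BT549 form 1 group, so parts of the genome were compared within each library. The deposited files list 1 summit per peak and library with a score on a −log10 scale, whether of p or of q is not given in the sources used here. The submitters' processing notes name BWA, SAMtools, MACS2 and hg19 without versions. The contig names in the lists are those of GRCh38, so RefSeq genes of GRCh38.p14 were used. The table has no strand for chromosome 8.

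From these, distances between summits (200 bp for sharing), distances to coding gene ends (1 kb), counts in 5-Mb bins and 13 gene lists were computed with Python 3.11.15, pandas 2.3.3 and SciPy 1.17.1. Chromosome lengths were the highest gene ends. Differences between 8p and the assembled chromosomes other than 8 were tested by an exact sign-flip permutation test over 3 libraries, adjusted by Benjamini-Hochberg over 6 tests, 2 of them added after the data were seen. The programs were tested on simulated data.

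Named genes were those with summits of all 3 libraries, up to 6 per list by number of libraries and distance, regions of all 3 libraries, genes of the fullest bin with at least 2 libraries, and the 5 genes with most summits inside. Others were named after their values were seen. The members and lists were chosen with earlier results of these data known. Alternatives were each library left out, higher scores, other distances, joined summits, parts of 8p left out and other reference parts. Read depth is unknown, and exact binomial intervals cover counting error only.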

Additional observations from a re-analysis of the deposited data

How the results depend on the processing

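Over 1 kb from coding gene ends, the lower shared share of 8p kept its direction under all 14 alternatives run, as did the higher share at gene ends. Leaving out 1 library at a time gave differences of 13.5 to 21.5 percentage points at gene ends and -31.5 to -16.4 away from them. For summit density the range was 1.24 to 2.15 per Mb, for the shared share -10.2 to -1.64 and for the gene-end share -12.7 to -1.36 percentage points. For the median score it was -0.0011 to 0.0863. Compared with 8q, density was -1.95 per Mb, the shared share 5.41 and the gene-end share 17.9 percentage points. Compared with chromosome 9 the gene-end share was 6.85. The score difference was -0.770 among summits at or above the median score of their list and -0.018 without 8p above 40 Mb. Coding genes near a summit numbered 40 to 79 with 1 library left out, and those of at least 2 libraries 19 to 28. Regions of at least 2 libraries numbered 14 to 23. With summits at or above the median score, these last counts were 14 genes and 13 regions. The cause was not tested, except that fewer libraries and summits enter these counts. The tests already pair parts of the genome within each library. Pairing of samples across groups was not possible, because there is 1 group of libraries and no second group could be matched to it. Read depth is unknown, so weak sites missing from replicates 1 and 2 cannot be told from absent ones.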

Other observations

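Many summits had exactly the same score as another summit of their list. On 8p these were 45.8%, 40.7% and 56.9% of the gene-end summits in replicates 1 to 3 and 62.5%, 86.8% and 94.9% of the others. The order was the same on 8q, with 65.5%, 46.3% and 62.7% at gene ends and 78.4%, 86.1% and 86.2% for distal summits, and on chromosome 9, with 52.9%, 66.7% and 77.9% against 80.6%, 79.1% and 91.0%. Over all chromosomes other than 8 it was the reverse in each library, with 64.0%, 75.7% and 88.4% at gene ends and 51.1%, 58.4% and 81.7% away from them. These differences were not tested.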
